A study of Mus musculus with 4 samples.

Results

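A set of 75 genes that build the sugar chains of mucins, selectin ligands and related glycoconjugates was examined in mouse CD8αβ+ T cells of the small intestine and the spleen, out of 27376 gene names on the array. Members were chosen by name alone, as every gene name on the array that starts with *Galnt*, *Gcnt*, *B3galt*, *B3gnt*, *B4galt*, *B4galnt*, *Fut*, *St3gal*, *St6gal* or *St8sia*, and they had 136 probes. The groups were CD8αβ+ IELs, the intraepithelial lymphocytes of the small intestine, and CD8αβ+ SPLs, the CD8αβ+ cells of the spleen, each with 2 RNA samples. Both populations came from untreated, male, wild-type mice of 8 to 12 weeks and were purified by cell sorting, with gates on CD8α, CD8β and the αβ T cell receptor, and the study pooled several mice for each sample. Expression was read on Agilent mouse arrays in 1 color, with 1 array per sample. Slide 1 carried IEL replicate 1 with SPL replicate 2, and slide 2 carried the other two arrays. Levels are given as the log2 of the processed signal relative to the 75th percentile of the same array, always with replicate 1 before replicate 2. A level of 1 probe cannot be set against that of another probe, so all comparisons are within a gene.

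Glycosyltransferases of the Golgi add 1 sugar at a time to proteins and lipids. Polypeptide GalNAc transferases place the first sugar of a mucin-type O-glycan on serine or threonine. Core and branching enzymes, galactosyltransferases and N-acetylglucosaminyltransferases then extend the chain, and fucosyltransferases and sialyltransferases cap it. In T cells, sialylated and fucosylated caps on core 2 O-glycans bind selectins and take part in homing, whereas in goblet cells and enterocytes the same enzyme families build the mucus layer and the glycocalyx.

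Some of the sequences behind the measurements are printed here to show what was measured and which genes the differences concern. A *Gcnt2* probe covers 34834 bases of the mouse genome with only 60 bases of sequence (mm9, chr13:41014117-41048950, plus strand), so it crosses at least 1 intron and detects spliced RNA.
*Gcnt2* probe A_52_P24477: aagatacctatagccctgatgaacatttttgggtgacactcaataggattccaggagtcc
A pair of *St6galnac5* probes on the minus strand (mm9, chr3:152484082-152484141 and chr3:152484062-152484121) shares 40 of 60 bases, and each has 20 bases of its own. The first was well above background on all 4 arrays and the second on 0 arrays, so the probes of a gene were never averaged in the main comparison.
*St6galnac5* probe A_51_P421724, own 5′ end: ttatcagaaacctaacctga
*St6galnac5* probe A_52_P309166, own 3′ end: aaggcctgaaagtatggaca

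The 250 bases before the transcription start are shown for a pair of members with both IEL arrays above the SPL arrays (*B3galt5* and *Gcnt2*) and a pair that was low on IEL replicate 1 (*Fut7* and *B3gnt5*). They are from RefSeq (GRCm38.p6) and all lie on the plus strand, and where several starts are listed (3 for *B3galt5*, 3 for *Gcnt2* and 2 for *Fut7*) the one of lowest coordinate was taken. Capitals mark matches on either strand to TTTATG (a motif of the intestinal CDX factors), GTTAAT (a part of the HNF1 site), TGTGGT (a RUNX motif) or CAGGAAG (an ETS motif), and no matches overlapped.
*B3galt5*, chr16:96235551-96235800: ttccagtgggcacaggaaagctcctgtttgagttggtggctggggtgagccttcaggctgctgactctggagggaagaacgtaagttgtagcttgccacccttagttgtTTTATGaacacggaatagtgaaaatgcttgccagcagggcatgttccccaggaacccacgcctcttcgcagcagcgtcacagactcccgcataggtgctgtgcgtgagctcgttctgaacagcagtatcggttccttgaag
*Gcnt2*, chr13:40859518-40859767: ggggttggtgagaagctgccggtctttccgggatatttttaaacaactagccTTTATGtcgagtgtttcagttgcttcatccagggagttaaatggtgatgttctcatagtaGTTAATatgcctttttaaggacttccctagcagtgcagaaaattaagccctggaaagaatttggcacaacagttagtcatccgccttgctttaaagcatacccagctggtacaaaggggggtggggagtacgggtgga
*Fut7*, chr2:25422992-25423241: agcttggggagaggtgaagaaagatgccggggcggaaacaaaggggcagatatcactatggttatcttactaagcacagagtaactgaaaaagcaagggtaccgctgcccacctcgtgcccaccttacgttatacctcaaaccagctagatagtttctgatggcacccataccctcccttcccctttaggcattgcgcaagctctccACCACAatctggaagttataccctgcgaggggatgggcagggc
*B3gnt5*, chr16:19759984-19760233: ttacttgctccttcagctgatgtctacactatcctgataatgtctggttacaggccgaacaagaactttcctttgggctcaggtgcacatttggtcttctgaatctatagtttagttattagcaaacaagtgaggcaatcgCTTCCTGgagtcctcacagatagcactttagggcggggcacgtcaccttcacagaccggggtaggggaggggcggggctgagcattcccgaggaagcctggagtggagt
The TTTATG match began 141 bases before the start of *B3galt5* and 198 bases before that of *Gcnt2*, where GTTAAT followed at 138 bases. A match of TGTGGT on the other strand (ACCACA) began 43 bases before the start of *Fut7*, and CAGGAAG on the other strand (CTTCCTG) began 109 bases before that of *B3gnt5*. RefSeq entries existed for 47 of the 62 members tested, with 64 starts. TTTATG was held by 5 of those 64 stretches (7.81%, against 10.8% of 32851 over all genes), GTTAAT by 1 (1.56%, against 6.43%), TGTGGT by 6 (9.38%, against 14%) and CAGGAAG by 5 (7.81%, against 10.8%). The motifs did not divide the members by direction. Other listed stretches of *B3galt5* held TGTGGT and CAGGAAG, as did *St8sia4* and *B4galt2* respectively, and *St6gal1* held TTTATG. The motifs were chosen after the levels were seen, and a match describes letters and not binding. The arrays do not tell which start was used.

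Limma was applied to 62 of the 75 genes (95 probes), those well above background in both samples of either group, among 18477 gene names tested in all. The other 13 were above background on 0 arrays with every probe: *B3galt2*, *B3gnt4*, *B4galnt3*, *Fut1*, *Fut9*, *Galntl1*, *Galntl2*, *Galntl4*, *Galntl5*, *Galntl6*, *Gcnt3*, *St6galnac1* and *St8sia3*. *Gcnt3* and *St6galnac1* are enzymes of intestinal mucin synthesis, and *Fut9* makes Lewis x structures. Each gene was represented by its brightest tested probe.

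The arrays did not separate by label, and IEL replicate 2 stood nearer to an SPL array than to the other array of its group. It also carried markers of spleen cells near the levels of the SPL arrays, as given with the marker lists. Its label was kept, whether its label or preparation is at fault was not tested, and every mean over the IEL arrays rests on it. The SPL arrays differed too, in markers of intestinal epithelium. Sums of goblet cell, Paneth cell, enterocyte and enteroendocrine markers were 1.64, 6.36, 0.938 and 0.378 on SPL replicate 1. On SPL replicate 2 they were 0.312, 5.3, 0.446 and 0.129, in the units of the marker lists. The cause was not tested, and every mean over the SPL arrays rests on SPL replicate 1 as well. Over the 62 members, which are no replicates of a condition, the 2 arrays of slide 2 had a Pearson's r of 0.980, although one is of IELs and the other of SPLs. The 2 arrays of slide 1 had one of 0.638, the 2 IEL arrays 0.864 and the 2 SPL arrays 0.923. IEL replicate 2 was nearer to SPL replicate 1 than to IEL replicate 1 for 53 of the 62 members, against 77.8% of all genes tested. For 29 members both arrays of slide 2 lay between those of slide 1 (34% of all genes), and 6 members were not well above background on IEL replicate 1 (8.13% of all genes). Most named members are therefore given on each array or slide, and the calls of members also with IEL replicate 2 left out. The medians of families and lists rest on all arrays. Array depth is set by signal over background, and 63.7% to 69.8% of the spots were well above it.

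With all arrays, 0 of the 62 members passed a Benjamini-Hochberg adjusted p of 0.05 in limma, against 0% of all genes in either direction, and the lowest adjusted p was 0.634. At an unadjusted p below 0.05, 9 members were higher in CD8αβ+ IELs (4.89% of all genes) and 0 were lower (0.985% of all genes). The 9 were *B4galnt2*, *B4galnt4*, *B4galt2*, *B4galt4*, *B4galt6*, *Gcnt2*, *St3gal3*, *St6galnac2* and *St8sia4*. With 2 samples against 2, the lowest p of an exact permutation test is 0.33 (two-sided). Both IEL arrays lay above both SPL arrays for 25 members (24.6% of all genes) and below them for 14 (24.6% of all genes). The median log2 difference, IEL minus SPL, was 0.14 over the members and -0.002 over all genes. It was 0.28 on slide 1 and 0.04 on slide 2 for the members. With normexp, an alternative background correction that models the uncorrected intensity of each spot and its local background, the members' median was -0.298 and that of all probes -0.38. A second normexp fit left out spots far below their local background, and the sign of a family or list median given here is stated to turn where either fit turned it.

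A pair of patterns across the 4 arrays recurred among the members with large differences. In the first, the level was highest on IEL replicate 1, lower on IEL replicate 2, lower again on SPL replicate 1 and lowest on SPL replicate 2, which held for 20 members against 13.2% of all genes. In the second, IEL replicate 1 alone was low and the other 3 arrays were close together, as described for *St6gal1*, *B3gnt5*, *St8sia6* and *Fut7*. *Fut2* and *B4galt2*, among the 10 largest rises, followed neither, since SPL replicate 1 was their lowest array. On both slides, 7 members were at least 2-fold higher in CD8αβ+ IELs (2.13% of all genes) and 0 were at least 2-fold lower (0.314% of all genes). The 7 were *B3galt5*, *St6galnac2*, *Gcnt2*, *B4galnt4*, *B4galt4*, *B4galnt2* and *B4galt2*. On slide 1 alone, 20 members were at least 2-fold higher (11.6% of all genes) and 9 at least 2-fold lower (14.2% of all genes). On slide 2 alone these counts were 7 (3% of all genes) and 0 (0.671% of all genes). Differences were under 0.5 log2 units on both slides for 19 members, against 45.3% of all genes.

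**Figure D1:**
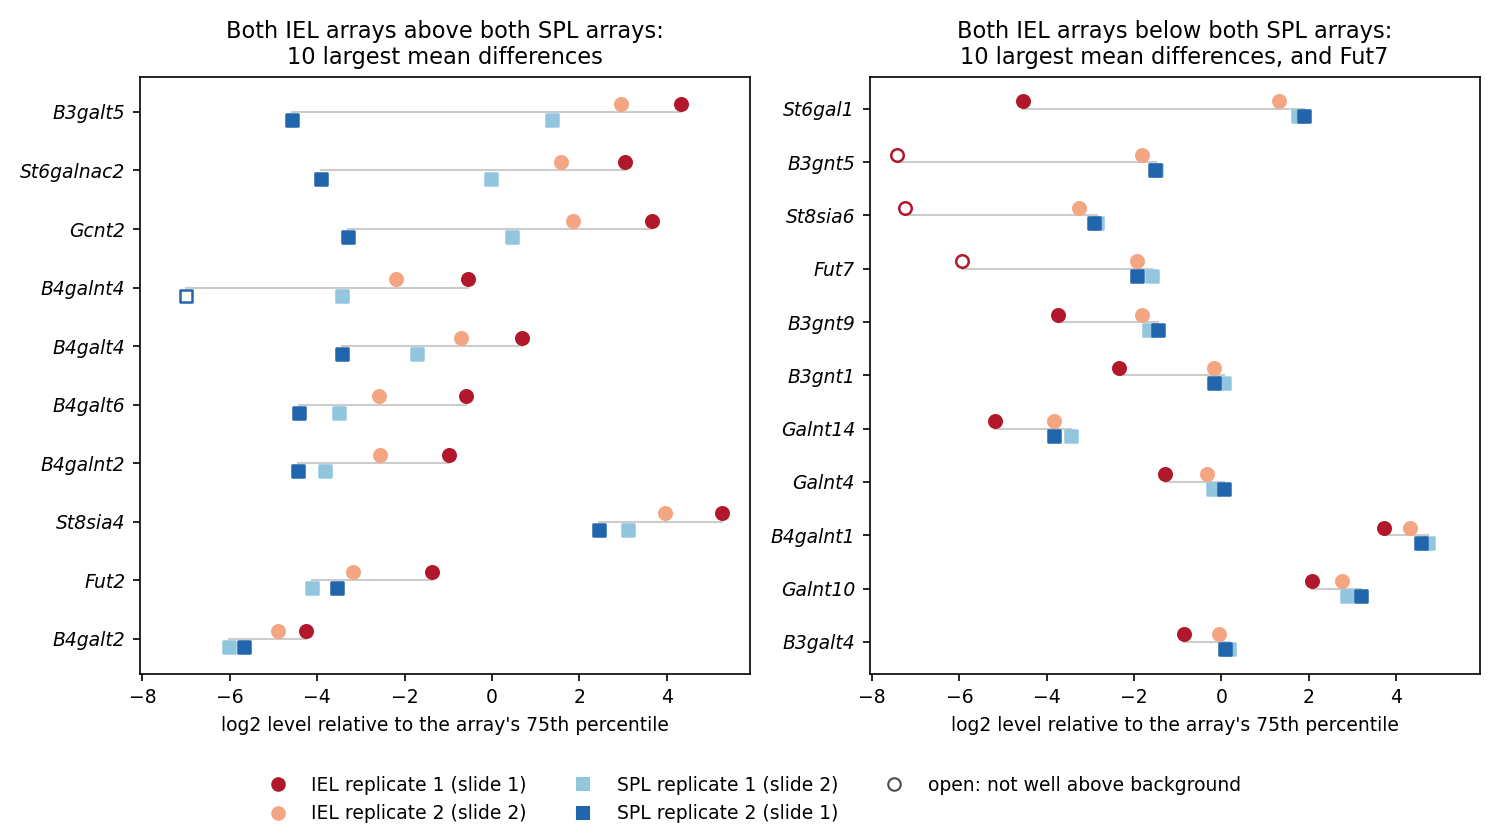
Log2 level on each array (circles for CD8αβ+ IELs, squares for CD8αβ+ SPLs, open symbols where the probe was not well above background) for the 10 largest differences in each direction among members whose groups do not overlap, and for *Fut7*. On the left, IEL replicate 1 is the highest array for each gene, and on the right it is the lowest.

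**Figure D2:**
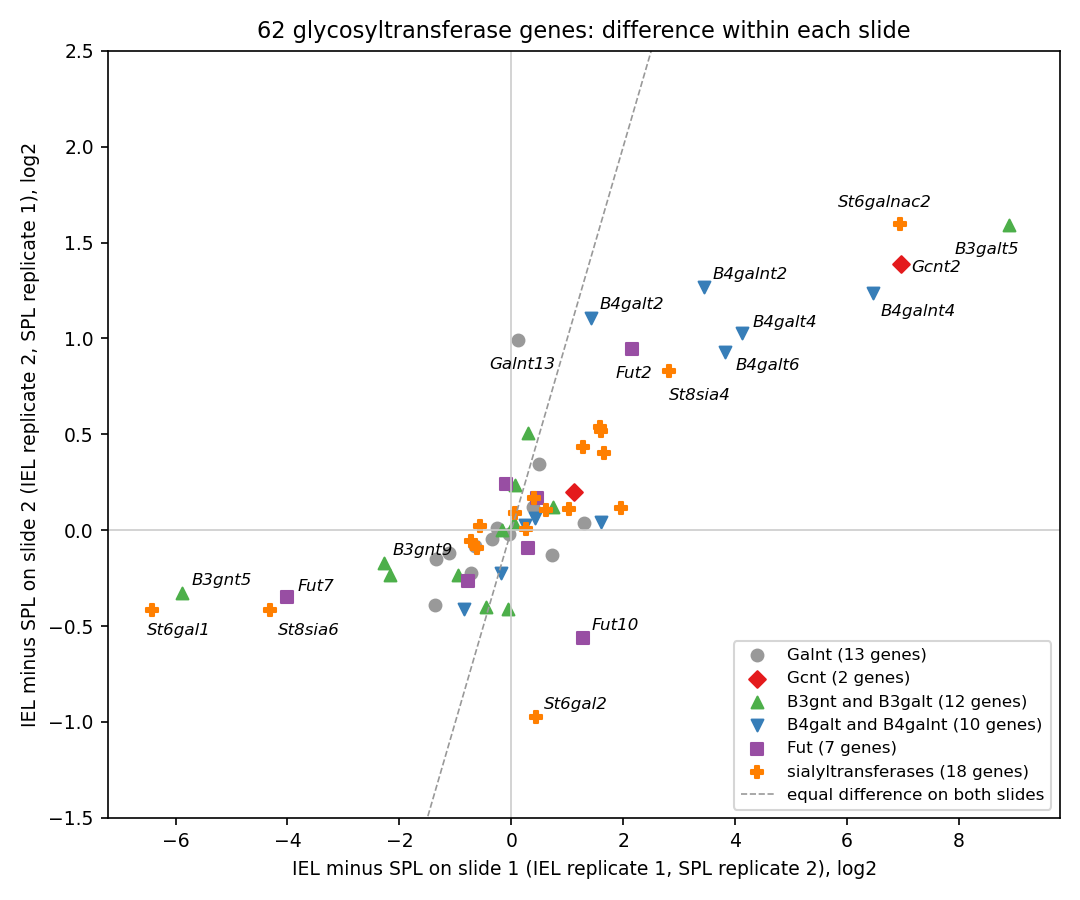
Log2 difference, IEL minus SPL, on slide 1 (horizontal axis) and slide 2 (vertical axis, on a wider scale) for each of the 62 members, with symbols for enzyme families and a dashed line of equal differences. The largest difference was 8.89 on slide 1 and 1.598 on slide 2.

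The chain is started by the polypeptide GalNAc transferases, and these 13 tested genes differed little in the mean over all arrays. Their log2 differences ran from -0.88 (*Galnt14*) to 0.67 (*Galnt2*), with a median of -0.12, which was 0.01 under a second fit of the normexp background correction. *Galnt2*, a broadly expressed initiating enzyme, had levels of 4.65 and 3.61 in CD8αβ+ IELs and of 3.57 and 3.35 in CD8αβ+ SPLs. *Galnt14* (0.0936 under the second normexp fit) had levels of -5.19 and -3.83 against -3.44 and -3.83, *Galnt4* of -1.29 and -0.33 against -0.18 and 0.06, and *Galnt10* of 2.06 and 2.76 against 2.88 and 3.18. In each of these 3 the lowest level was that of IEL replicate 1. On slide 1 *Galnt14*, *Galnt4*, *Galnt10* and *Galnt2* differed by -1.36, -1.35, -1.12 and 1.30, and on slide 2 by -0.39, -0.15, -0.12 and 0.04. *Galnt3* and *Galnt12*, initiating enzymes of epithelial mucins, differed by 0.30 and -0.37 (-0.80 and 0.065 under normexp), and the SPL arrays of *Galnt3* (-3.40 and -4.57) lay on either side of its IEL arrays (-3.84 and -3.53).

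*Gcnt2* encodes the enzyme that makes I branches on polylactosamine chains, and it was higher on both IEL arrays. Its levels were 3.66 and 1.85 in CD8αβ+ IELs and 0.47 and -3.30 in CD8αβ+ SPLs. The mean log2 difference was 4.18 (18.1-fold, standard error 1.43, limma adjusted p 0.634). Slide 1 gave 6.96 and slide 2 gave 1.39. The intron-spanning probe printed above gave 3.73, with levels of 1.76 and 0.33 against -1.17 and -4.21, so both probes had the same order of arrays. *Gcnt1*, the core 2 branching enzyme of selectin ligands in leukocytes, differed less, with levels of -1.77 and -2.13 against -2.32 and -2.90. Its mean difference was 0.66, and a pair of overlapping probes gave 1.23 and 1.46. Both tested *Gcnt* genes were higher on both IEL arrays (24.6% of all genes), and *Gcnt1* turned to -0.40 under the normexp background correction.

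Among the β1,3-galactosyltransferases, *B3galt5*, which makes type 1 chains in epithelia, had the largest mean difference of the 62 members. Its levels were 4.33 and 2.96 in CD8αβ+ IELs (mean 3.64 ± 0.97, SD, n = 2) and 1.37 and -4.57 in CD8αβ+ SPLs (mean -1.5997 ± 4.198, SD, n = 2). The SPL replicates thus lay further apart than the group means. The mean log2 difference was 5.24 (standard error 2.08, limma adjusted p 0.634), and the slides gave 8.89 and 1.59. The other 3 tested genes of this family differed by -0.59 to 0.40. *B3galt4*, the GM1 synthase of ganglioside synthesis, had the lowest of these values, with levels of -0.86 and -0.06 against 0.17 and 0.09.

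The β1,3-N-acetylglucosaminyltransferases, which extend chains with N-acetylglucosamine, had a median difference of -0.33 over 8 genes, which was 0.09 under the second normexp fit. *B3gnt5*, the lactotriaosylceramide synthase of lacto-series glycolipids, was not well above background on IEL replicate 1. Its levels were -7.42 and -1.81 in CD8αβ+ IELs and -1.49 and -1.53 in CD8αβ+ SPLs. As its level on IEL replicate 1 is only an upper bound, the gene was at least 14.5-fold lower on slide 1, against the lowest level well above background on that array, and it differed by -0.33 on slide 2. The mean log2 difference as fitted, with 1 of the 2 IEL arrays measured, was -3.11 (standard error 1.91, limma adjusted p 0.634). A second, dimmer probe gave -1.52, with levels of -7.41 and -4.62 against -4.10 and -4.89. This probe too was not well above background on IEL replicate 1, and its groups overlapped. *B3gnt9* had levels of -3.73 and -1.83 against -1.66 and -1.45. *B3gnt1*, now named *B4gat1* and known for the matriglycan of dystroglycan, had levels of -2.34 and -0.18 against 0.06 and -0.17. All 3 shared a low level on IEL replicate 1 and similar levels on the other arrays. *B3gnt2*, the main polylactosamine synthase, differed by 0.05, with all 4 levels between 1.63 and 1.68, and *B3gnt7* by 0.43 (-0.96 under normexp).

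The β1,4-galactosyltransferases had a median difference of 0.82 over 7 genes, 6 of which had the higher mean in CD8αβ+ IELs, although this median was -0.16 under the normexp background correction. *B4galt4* had levels of 0.69 and -0.70 in CD8αβ+ IELs and of -1.72 and -3.43 in CD8αβ+ SPLs, a difference of 2.57 (standard error 0.78) with 4.12 on slide 1 and 1.03 on slide 2. *B4galt6*, a lactosylceramide synthase, had levels of -0.60 and -2.58 against -3.51 and -4.42, a difference of 2.38. *B4galt2* was dim, with levels of -4.25 and -4.90 against -6.01 and -5.68, and it differed by nearly the same amount on slide 1 (1.43) and slide 2 (1.11). *B4galt5*, the other lactosylceramide synthase, differed by 0.82, mostly through a low level on SPL replicate 2 (-3.13 and -3.61 against -3.66 and -4.73). *B4galt1*, the main galactosyltransferase of N-glycans and selectin ligands, had levels between 4.31 and 4.64 on all arrays. The differences of *B4galt2*, *B4galt5* and *B4galt6* turned negative under the normexp background correction, whereas that of *B4galt4* was at least 0.78 in every setting.

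The β1,4-GalNAc transferases went both ways. *B4galnt2*, which makes the Sda antigen of the intestinal epithelium, had levels of -0.99 and -2.55 in CD8αβ+ IELs and of -3.82 and -4.44 in CD8αβ+ SPLs. It differed by 2.36 (standard error 0.61, unadjusted p 0.015 and adjusted p 0.634 in limma), by 3.45 on slide 1, by 1.27 on slide 2, and by -0.21 under the normexp background correction. *B4galnt4*, which makes LacdiNAc, had levels of -0.55 and -2.19 against -3.43 and -7.001 and a mean difference of 3.85. It was well above background on only 1 of the 2 SPL arrays, and its difference was 0.006 at its lowest among the settings run. *B4galnt1*, the GM2 and GD2 synthase, was instead higher on both SPL arrays, with levels of 3.73 and 4.31 against 4.72 and 4.57 and a difference of -0.63.

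**Figure D3:**
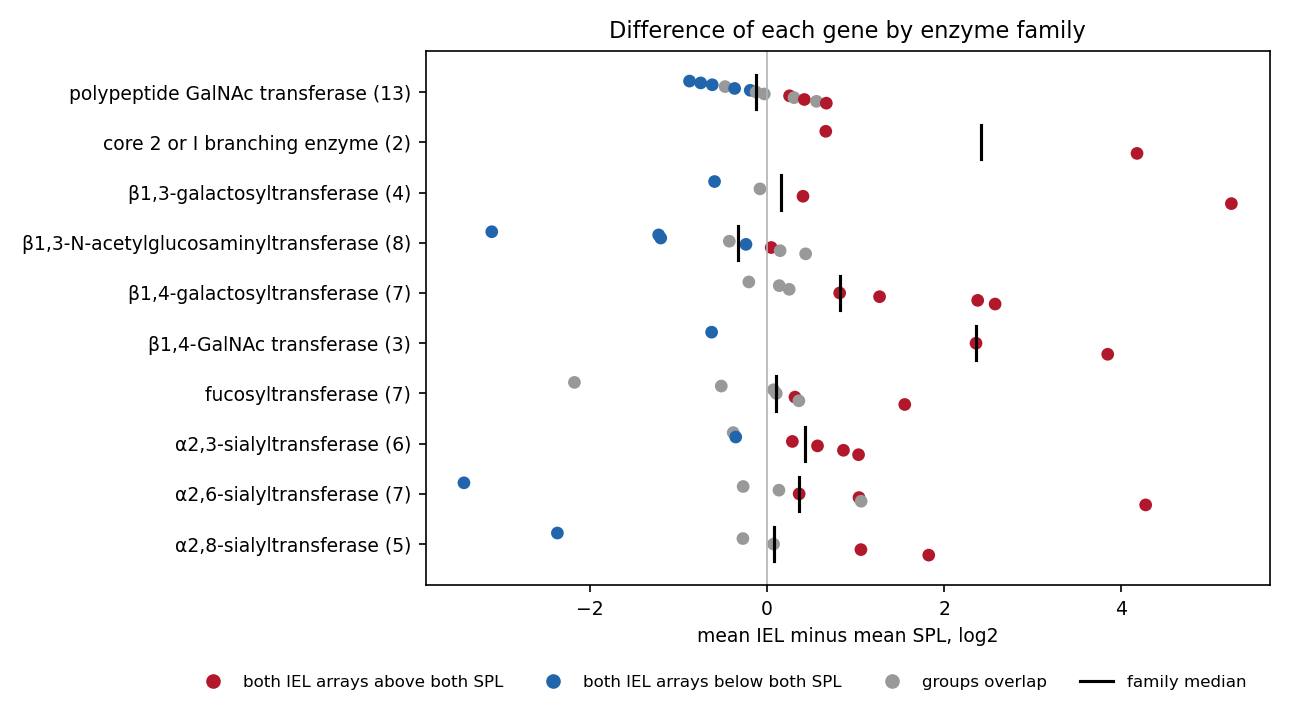
Mean log2 difference, IEL minus SPL, of each tested member by enzyme family, with the number of genes in parentheses, a black line at the family median and colors for whether the 2 IEL arrays lie above, below or among the SPL arrays. Galnt genes lie within 0.88 of zero, and the 2 *Gcnt* genes both lie above it.

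Among the fucosyltransferases, 7 gene names were tested, of which *Fut4-ps1* is a pseudogene with a non-coding transcript, and their median difference was 0.10, which was -0.64 under the normexp background correction. *Fut2*, the secretor enzyme that adds α1,2-fucose to mucins, had levels of -1.37 and -3.18 in CD8αβ+ IELs and of -4.12 and -3.53 in CD8αβ+ SPLs. It differed by 1.55 (standard error 0.68), with 2.16 on slide 1 and 0.94 on slide 2, and by -0.55 under normexp. *Fut7*, the α1,3-fucosyltransferase that completes sialyl Lewis x in leukocytes, was not well above background on IEL replicate 1. Its levels were -5.95 and -1.93 against -1.58 and -1.94, so that IEL replicate 2 lay within the range of the SPL arrays. By the same bound as for *B3gnt5*, it was at least 10.8-fold lower on slide 1, and it differed by -0.35 on slide 2. The mean difference as fitted, with 1 of the 2 IEL arrays measured, was -2.18 (standard error 1.39, limma adjusted p 0.634). *Fut4*, the other leukocyte α1,3-fucosyltransferase, was dim (-5.27 and -4.32 against -4.06 and -4.50) and not well above background on IEL replicate 1.

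The α2,3-sialyltransferases cap chains of O-glycans, N-glycans and glycolipids, and 4 of 6 had the higher mean in CD8αβ+ IELs. The differences were 1.03 for *St3gal2*, 0.86 for *St3gal3*, 0.57 for *St3gal6* and 0.28 for *St3gal5*. All 4 were higher on both IEL arrays with the probe that represents the gene (24.6% of all genes). A second *St3gal6* probe gave -0.13, with levels of 0.13 and 0.36 against 0.29 and 0.46, and *St3gal3* and *St3gal5* turned to -0.23 and -0.19 under normexp. *St3gal2*, an enzyme of gangliosides and core 1 O-glycans, had levels of -0.06 and -0.93 against -1.34 and -1.72. *St3gal3* had levels of -0.98 and -1.44 against -1.87 and -2.27, and *St3gal6* of 3.17 and 2.56 against 2.45 and 2.14. In each of these 3 the IEL replicates were further apart than IEL replicate 2 and SPL replicate 1. *St3gal1*, which caps core 1 O-glycans, and *St3gal4*, an enzyme of selectin ligands, differed by -0.38 (0.036 under normexp) and -0.36. The family's median of 0.43 turned to -0.08 under the normexp background correction.

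The α2,6-sialyltransferases held the largest contrast between 2 members of 1 family. *St6galnac2*, which adds sialic acid to the first GalNAc of mucin-type O-glycans, had levels of 3.05 and 1.58 in CD8αβ+ IELs and of -0.01 and -3.90 in CD8αβ+ SPLs. It differed by 4.27 (19.3-fold, standard error 1.42, limma adjusted p 0.634), and the slides gave 6.95 and 1.598. Its 3 probes disagreed, since one near the same end of the gene (mm9, chr11:116537211-116537270) gave 3.88 and one further away (mm9, chr11:116545686-116545745) gave 0.35, with levels of -0.32 and -0.22 against -0.41 and -0.83. *St6gal1*, which puts α2,6-sialic acid on N-glycans and makes ligands of CD22, had levels of -4.53 and 1.33 in CD8αβ+ IELs and of 1.75 and 1.90 in CD8αβ+ SPLs. The mean log2 difference was -3.42 (standard error 2.00, limma adjusted p 0.634), and the slides gave -6.43 and -0.42. A dimmer *St6gal1* probe (mm9, chr16:23358405-23358465) gave -0.24, with levels of -4.04 and -3.36 against -3.49 and -3.43, so the large difference was seen with 1 of the 2 probes. The ganglioside enzymes *St6galnac3* and *St6galnac5* differed by 1.04 and 1.06, the latter with groups that overlapped (-4.25 and -3.62 against -4.16 and -5.84), and both turned negative under the normexp background correction.

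The α2,8-sialyltransferases also went both ways. *St8sia4*, one of the polysialic acid synthases, had levels of 5.28 and 3.95 in CD8αβ+ IELs and of 3.12 and 2.46 in CD8αβ+ SPLs. Its difference was 1.82 (3.54-fold, standard error 0.55, unadjusted p 0.026 and adjusted p 0.634 in limma), or 2.82 and 0.83 within the slides, and it was at least 1.16 in every setting. *St8sia2*, the other polysialic acid synthase, was dim (-4.19 and -4.07 against -4.59 and -5.79), and its difference of 1.06 turned to -0.91 under normexp. *St8sia6*, which makes disialic acid on O-glycans, was not well above background on IEL replicate 1, with levels of -7.24 and -3.26 against -2.84 and -2.92. By the same bound it was at least 5.50-fold lower on slide 1, and it differed by -0.42 on slide 2. The mean difference as fitted, with 1 of the 2 IEL arrays measured, was -2.37. The GD3 synthase *St8sia1* differed by -0.27 and *St8sia5* by 0.07 (-0.68 under normexp).

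By pathway, the 9 genes of selectin ligand synthesis had a median difference of 0.05, of which 4 were higher and 2 lower on both IEL arrays (24.6% of all genes in either direction). This median was -0.01 with median scaling and -0.306 under the normexp background correction, where 3 of the 9 genes had the higher mean in CD8αβ+ IELs. The 9 tested genes of mucin O-glycan synthesis had a median of 0.43, with 4 higher and 2 lower on both IEL arrays, and the 11 genes of ganglioside synthesis one of 0.28, with 5 higher and 2 lower, beside the same 24.6% of all genes. Both of these medians were negative under the normexp background correction (-0.21 and -0.29), under which the median of all probes was itself -0.38. In mucin synthesis the large values were those of *B3galt5*, *St6galnac2*, *B4galnt2* and *Fut2*, and the other 5 genes differed by -0.75 to 0.43. In selectin ligand synthesis, the transferases other than *Fut7* differed by -0.52 to 0.86.

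Genes of the same or related pathways that are not members by the rule were also read, with 0 passing the adjusted threshold with all arrays. Of the 7 sulfotransferases tested, 4 were lower on both IEL arrays (24.6% of all genes). Their median difference was -0.51, with 3 of 7 higher by mean, and 0.02 with 5 of 7 higher under the second normexp fit. *Chst1*, a sulfotransferase of galactose and keratan sulfate, was not well above background on IEL replicate 1 and had levels of -7.51 and -4.30 against -4.11 and -4.10, so the same array stood apart as for *Fut7*. Its difference of -1.80 was 0.02 under the second normexp fit. *Chst3*, the chondroitin 6-sulfotransferase, had levels of -3.96 and -0.39 against 0.01 and -0.30. *Selplg*, which encodes the carrier PSGL-1, differed by 0.53, with levels of 6.58 and 5.90 against 5.88 and 5.54. *C1galt1*, the core 1 synthase, differed by -0.68, whereas its chaperone *C1galt1c1* had levels between 0.89 and 1.16 on all arrays.

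**Figure D4:**
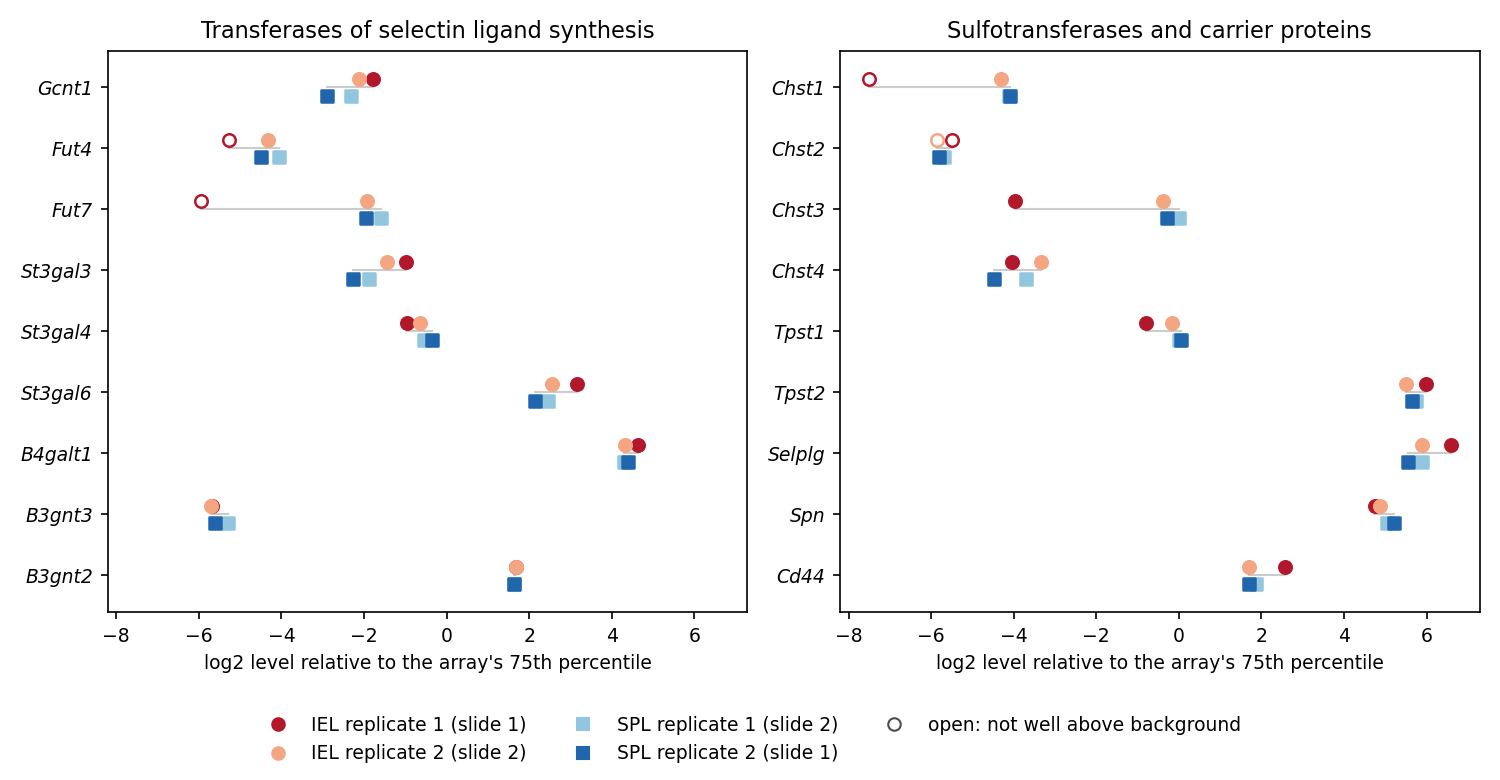
Log2 level on each array of the 9 transferases of selectin ligand synthesis (left) and of sulfotransferases and carrier proteins (right), with open symbols where the probe was not well above background. For *Fut7*, *Chst1* and *Chst3*, IEL replicate 1 lies apart from the other 3 arrays.

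Of the mucin core proteins, 9 were tested and 6 were higher on both IEL arrays (24.6% of all genes). Their median difference was 0.42, with 8 of 9 higher by mean, but it was -0.75 with 0 of 9 higher under the normexp background correction and 0.39 with 9 of 9 higher under its second fit. *Muc2*, the main secreted mucin of goblet cells, had levels of -0.49 and -3.25 in CD8αβ+ IELs and of -4.95 and -6.67 in CD8αβ+ SPLs, and 1 SPL array was not well above background. *Muc3*, a membrane mucin of enterocytes, had levels of -0.63 and -3.72 against -5.41 and -4.99. *Muc13* was well above background on both IEL arrays and on 0 SPL arrays. Of the 23 tested genes of nucleotide sugar synthesis and transport, 9 were higher and 4 lower on both IEL arrays (24.6% of all genes in either direction), and their differences ran from -0.90 to 1.36.

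Markers of other cell types moved along with both patterns. All 7 tested goblet cell markers were higher on both IEL arrays (24.6% of all genes), with a summed signal of 39.0 and 4.55 times the 75th percentile in CD8αβ+ IELs and of 1.64 and 0.312 times in CD8αβ+ SPLs. The same held for 5 of 6 Paneth cell markers (sums of 220.3 and 7.70 against 6.36 and 5.29), 9 of 10 enterocyte markers (4.75 and 2.16 against 0.938 and 0.446) and 5 of 5 enteroendocrine markers (5.17 and 0.916 against 0.378 and 0.129). Under the normexp background correction the median difference of the enterocyte markers turned from 1.87 to -0.43, and those of the goblet cell, Paneth cell and enteroendocrine markers fell to 1.26, 0.95 and 0.05. The order of arrays in these goblet cell, Paneth cell, enterocyte and enteroendocrine sums was that of *Gcnt2*, *B3galt5* and *St6galnac2*. For the spleen, 6 of 6 erythroid and 6 of 6 neutrophil markers were lower on both IEL arrays (24.6% of all genes). Their sums were 1.16 and 75.02 against 99.1 and 115.8, and 0.219 and 35.8 against 44.4 and 50.004. B cell and macrophage markers had sums of 3.58 and 20.2 against 25.9 and 19.7, and of 0.461 and 10.5 against 13.7 and 5.26, and 6 of 6 and 7 of 7 of them had the lower mean in CD8αβ+ IELs. The defining B cell markers *Ms4a1* and *Cr2*, the neutrophil markers *S100a8*, *Camp*, *Ltf* and *Ngp* and the macrophage markers *C1qa* and *Vcam1* were not well above background on IEL replicate 1 but were on IEL replicate 2. CD8 T cell markers had sums between 785.6 and 882.1 on all arrays. Of the 9 tested, 3 were higher and 4 lower on both IEL arrays (24.6% of all genes in either direction). Their differences ran from -1.13 to 0.52. The part of these cell types in the differences between transferases was not tested, and fewer cells of a type and less RNA per cell cannot be told apart in such samples.

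**Figure D5:**
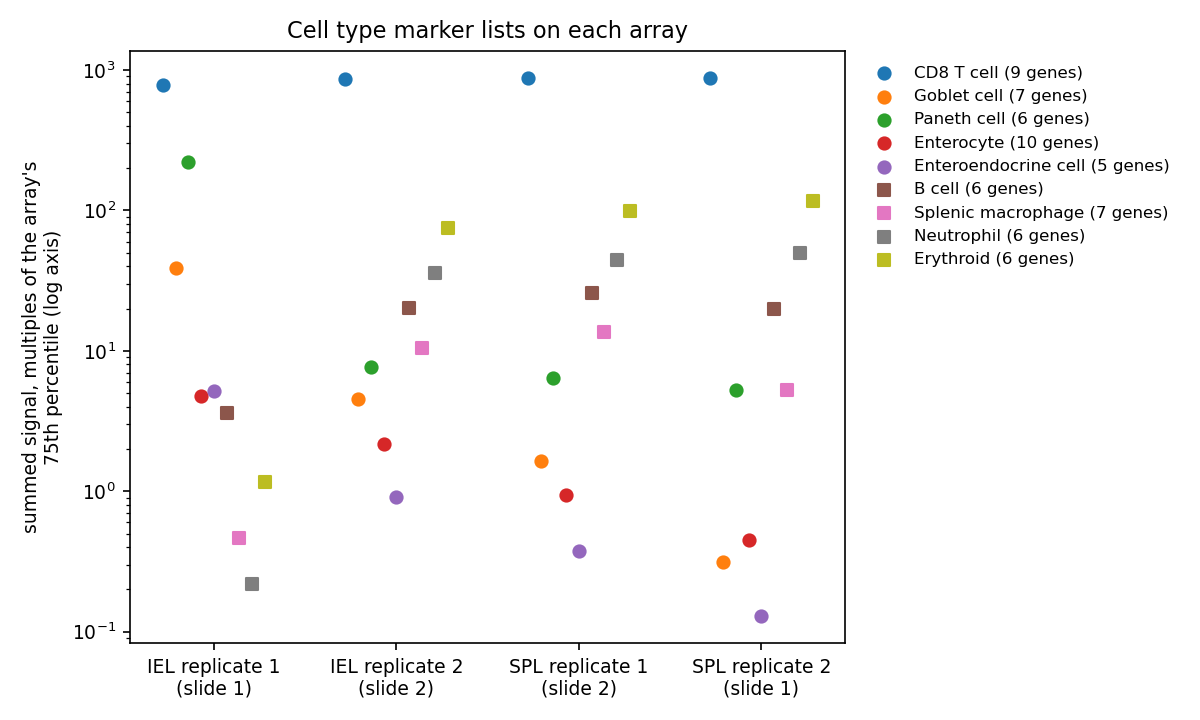
Summed signal of the tested genes of each marker list on each array, as multiples of the 75th percentile of that array, on a log axis. Markers of intestinal epithelium (circles, except CD8 T cell) run from high on IEL replicate 1 to low on SPL replicate 2, and markers of B cells, macrophages, neutrophils and erythroid cells (squares) are low on IEL replicate 1.

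Leaving out IEL replicate 2 changed the calls. IEL replicate 1 was then compared with both SPL arrays, of which SPL replicate 1 had the higher sums of epithelial markers. The fit assumed that the lone sample varies as the SPL pair does. In this fit 10 members were called higher (8.22% of all genes) and 8 lower (11.5% of all genes), with adjusted p from limma below 0.05. The higher ones were *B4galnt2*, *B4galt6*, *Fut2*, *St8sia4*, *B4galt2*, *St3gal2*, *St6galnac3*, *Galnt2*, *B4galt4* and *Fut10*, with log2 differences of 1.19 to 3.37 (*Galnt2* and *Fut10* are named because this fit called them, and *Fut10* was not well above background on IEL replicate 2). The lower ones were *St6gal1* (-6.36, adjusted p 0.0026), *B3gnt5* (adjusted p 0.0026), *St8sia6* (adjusted p 0.0034), *Fut7* (adjusted p 0.0044), *B3gnt1*, *B3gnt9*, *Galnt14* and *Galnt4*, of which the last 4 lay between -2.28 and -1.23. *B3gnt5*, *St8sia6* and *Fut7* were not well above background on IEL replicate 1, so that their fitted values rest on an unmeasured level, and the bound was at least 14.7-fold, 5.67-fold and 12.3-fold lower. *Gcnt2*, *St6galnac2*, *B4galnt4* and *B3galt5*, with larger differences but SPL arrays far apart, had adjusted p from limma of 0.084, 0.092, 0.090 and 0.15 and were not called. Without IEL replicate 1, limma called 0 members (0% of all genes), and 6 had an unadjusted p below 0.05 (7.54% of all genes). On IEL replicate 2 alone, *B3galt5* was 4.56 above the SPL mean, *St6galnac2* 3.54 and *Gcnt2* 3.27. Against SPL replicate 1 only, they were 1.59, 1.598 and 1.39 higher, as SPL replicate 2 was far lower. From the SPL mean, *St6gal1* differed by -0.49 and *Fut7* by -0.17.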

How the data were processed

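RNA of 2 samples of CD8αβ+ IELs and 2 of CD8αβ+ SPLs was measured on 4 1-color arrays. The deposited scanner files (Feature Extraction 10.7.3.1 per the file headers, 10.7.1.1 per the labels) hold for each spot a processed intensity with background subtracted within the array, the uncorrected intensity and other quality marks, none of them scaled across arrays. A table of log2 values was also deposited by the authors, with equal extremes on every array (medians of 5.57 to 5.59), and was used as an alternative. Their scale is log2 and their rank correlation with the scanner values was 1.00, no centring was found and the method is not given in the sources used here. The methods of the study name other chips.

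The log2 of the processed intensity was taken relative to each array's 75th percentile over spots that are not controls (312 to 605 units). Marked spots were left out (98 to 179 per array, 0 on members, and 0 saturated), and spots of a probe were averaged. Of 41174 probes, 27936 were well above background in both samples of either group. These were fitted in R 4.3.3 by limma (version 3.58.1) without a block, with 2 residual degrees of freedom, two-sided, and were called at a Benjamini-Hochberg adjusted p of 0.05 over every probe fitted. Files were read by jsonlite (2.0.0) and data.table (1.17.8). A gene was represented by its tested probe of highest mean signal. Positions are on mm9. Sequences and current names are from RefSeq (GRCm38.p6). Figures and the motif search used Python 3.11.15, pandas 2.3.3 and matplotlib 3.10.9.

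Named members are those of the selectin ligand, mucin and ganglioside lists, the 10 largest differences in each direction without overlap of groups, the members past the threshold, the 3 largest in each direction past it without IEL replicate 2, and those whose probes differ by over 1. *Galnt2*, *Fut10* and *St8sia2* were named after their values were seen. Members, lists and this rule were chosen with earlier results of these data known. Arrays with the same replicate number did not deviate together (r = -0.025 over probes for the distance from the group mean), so the numbers pair nothing. Per the study, each sample was sorted from several mice. The p-values measure only the spread between these samples, and 2 arrays per group limit the precision. The model was checked on simulated data. Alternatives were other scalings and background corrections, filters, variance models, blocks, the methods' unpaired test, and each sample left out.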

Additional observations from a re-analysis of the deposited data

How the results depend on the processing

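The count of called members was 0 in each fit with all 4 arrays, also with the replicate number as a block (0 probes called), with the slide as a block, and with the methods' unpaired test, which called 1 member (*B3gnt2*) and 819 probes at its own threshold and 0 after adjustment. With 1 sample left out in turn, called members ranged from 0 to 18 and called probes from 0 to 5455, and the highest of both came without IEL replicate 2. Members whose remaining IEL arrays lay above the remaining SPL arrays then ranged from 29 to 33, and members below from 17 to 24. Fewer arrays have to be in order with 1 sample left out, which by itself raises such counts. They cannot be set against the 25 and 14 with all arrays, and no share of all genes is given for them. The normexp background correction moved the members' median to -0.298 and the median of all probes to -0.38. It moved the count of members above on both IEL arrays to 11, for which no share of all genes is given. Under it, differences turned to -0.96 for *B3gnt7*, -0.21 for *B4galnt2*, -0.90 for *B4galt2*, -0.80 for *B4galt5*, -0.29 for *B4galt6*, -0.55 for *Fut2*, -0.80 for *Galnt3*, -0.40 for *Gcnt1*, -0.23 for *St3gal3*, -0.19 for *St3gal5*, -0.73 for *St6galnac3*, -0.75 for *St6galnac5*, -0.89 for *St6galnac6*, -0.68 for *St8sia5*, -1.02 for *Fut10*, -0.91 for *St8sia2*, 0.065 for *Galnt12* and 0.0363 for *St3gal1*. A second normexp fit without spots far below background turned *B3gnt3* to 0.31, *Fut4* to 0.19 and *Galnt14* to 0.0936. Median scaling turned *B3gnt2* to -0.0102. With each sample left out in turn, the sign turned for *B4galt1* (range -0.0194 to 0.292), *St3gal1* (-0.778 to 0.00998) *St6galnac6* (-0.0553 to 0.321) and *Fut10* (-0.905 to 1.62), all without IEL replicate 1, for *Galnt3* (-0.283 to 0.889) without SPL replicate 2, and for *St8sia5* (-0.0137 to 0.158) without SPL replicate 1. The cause was not tested. No other member difference covered by the naming rule, and not that of *Galnt2*, changed sign in the settings run. Dim probes near background have no measured order.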
